A study of Oikopleura dioica with 67 samples.

Results

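The mRNA decay and deadenylation genes of the larvacean tunicate Oikopleura dioica, a small planktonic chordate that keeps its tail as an adult, were followed from the egg to the adult. They are the 68 unigenes (assembled transcripts) whose gene symbol names a component of this machinery, out of 19277 unigenes in all and 10122 with a symbol. The rule names gene symbols. By role the set held 11 unigenes of the CCR4-NOT complex, 4 of other deadenylases, 8 of adaptor proteins that recruit deadenylases, 16 of decapping and decay from the 5' end, 3 of other LSM proteins, 15 of the RNA exosome and its helicases, 9 of nonsense-mediated decay and 2 of stalled ribosome rescue. Where several unigenes carry 1 symbol they are told apart by a letter, with a for the one of highest mean level. The sources used here do not say whether such unigenes are separate gene copies or pieces of 1 transcript, and reads may have been split between them, so their separate levels are uncertain.

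All animals were untreated wild type, drawn from a Japanese population kept for many generations in the laboratory. The staged set held 43 libraries, with 3 each of the unfertilized egg, the zygote, the 2-cell, 4-cell, 8-cell, 16-cell and 32-cell embryo, and animals at 1.5, 2.5, 3, 5, 8 and 10 hours post fertilization (hpf), and with 2 each of whole adult females and whole adult males. Hatching falls at 3 hpf and the juvenile form is reached by 10 hpf, per the labels. A separate set of 24 libraries held the vegetal hemisphere, the animal hemisphere and the whole embryo at the 8-cell stage. It also held vegetal, animal and whole samples at 12 hpf, with 4 libraries of each group, numbered 3 to 6. The 12 hpf vegetal and animal samples are named for the hemisphere they derive from, as 12 hpf is past the juvenile stage. Any effect of developing as a separate part cannot be told apart there from that of position. The staged libraries were strand-specific and the hemisphere libraries were not, so reads from overlapping antisense genes cannot be told apart in the hemisphere set. The labels do not say that libraries of 1 group came from separate cultures, so the p-values measure the spread between these libraries, which may be technical.

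Messenger RNAs in animal cells usually lose their poly(A) tail first, through PAN2-PAN3 and the CCR4-NOT complex, in which CNOT1 is the scaffold and CNOT7 one of the catalytic subunits. The shortened RNA is then decapped by DCP2 with its partners and digested by the exonuclease XRN1, or degraded from the other end by the exosome. Adaptors such as the ZFP36, Pumilio and TOB proteins bring deadenylases to particular mRNAs, and in many animals this machinery removes maternal mRNAs after fertilization.

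Expression was deposited as RPKM, read numbers scaled to unigene length and to the mapped reads of the library. Differences are given on the log2(RPKM + 1) scale, which understates changes of weakly expressed genes, and were tested with limma across all unigenes at a Benjamini-Hochberg adjusted p of 0.05. Values of single libraries are listed in the order of their library numbers. In these bulk samples fewer cells of a type and less RNA per cell cannot be told apart.

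The libraries held 7785352 to 95644620 reads, of which 18.9% to 49.0% aligned. The RPKM values of a library summed to between 739145 and 1234504 in the staged set and to between 824912 and 1121461 in the hemisphere set. Among the 39 stage libraries, 8 had a sum under 900000: eggs 29 and 41, zygote 42, 3 hpf libraries 33 and 34, 5 hpf libraries 6 and 7, and 8 hpf library 8. The members stood apart in those libraries. Both low-sum egg libraries lay above the third egg library for 47 of 68 members and below it for 19, and the corresponding counts were 53 and 11 at 3 hpf and 52 and 15 at 5 hpf. All 11 CCR4-NOT members were higher in the low-sum libraries of 3, 5 and 8 hpf, whereas the 7 members among LSM1 to LSM8 were all lower in the low-sum libraries of the egg, 3, 5 and 8 hpf. The cause of this split was not tested. Stage comparisons are therefore given with and without these 8 libraries, a setting chosen after seeing the data. Without them the egg, 3 hpf and 5 hpf are 1 library each, which is assumed to vary like the other groups.

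Nearly every member varied over the 13 stages: 67 of 68 passed the limma F-test, against a background of 92.9% of all unigenes tested. Mean levels were highest in the egg for 17 members, in the zygote for 8, at the 4-cell stage for 10, at 3 hpf for 11 and at 5 hpf for 9. They were lowest at the 32-cell stage for 17 members, at 8 hpf for 16 and at 10 hpf for 11. The median member lay at 15.7 to 42.8 RPKM in the egg libraries, at 8.86 to 11.4 RPKM at the 32-cell stage, and at 10.3 to 14.7 RPKM at 10 hpf. Most members were thus present at each stage, with 7 to 12 of the 68 under 1 RPKM in the 32-cell libraries and 0 at 10 hpf. Single libraries of other stages had medians as low, with 8.84 RPKM in 4-cell library 37, 9.06 in 5 hpf library 20 and 8.43 in 8 hpf library 21. Egg 9, the egg library that is not low-sum, had the egg median of 15.7 RPKM.

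**Figure D1:**
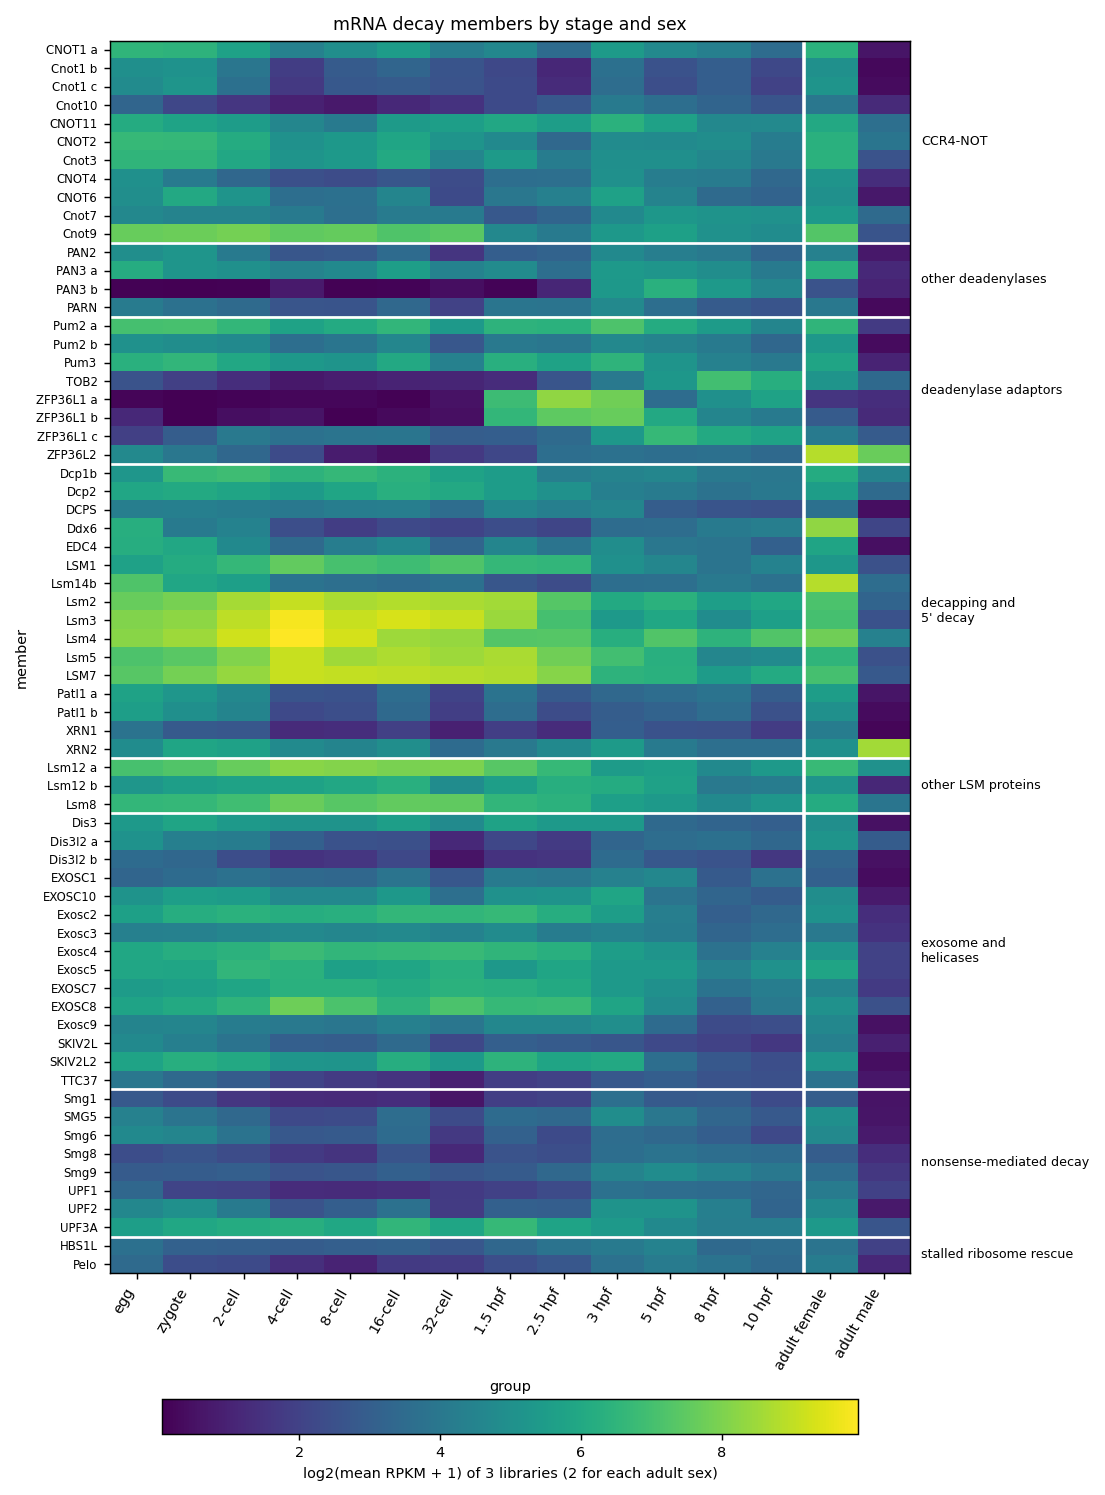
log2(mean RPKM + 1) of 67 members, in rows grouped by role, over the 13 stages in order and the 2 adult groups. ZFP36L1 a and ZFP36L1 b are near 0 until the 32-cell stage and high from 1.5 to 3 hpf, most members are low in males, and XRN2 is high in males.

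The 12 steps between successive stages placed the changes in time. Through the 6 steps from egg to 32-cell embryo no member passed the limma test, against a background of 0.0374%, 0%, 0.00535%, 0.0214%, 0.561% and 1.76% of all unigenes in the order of the steps. At an unadjusted p under 0.05 there were 8 members from egg to zygote, 1 to the 2-cell, 19 to the 4-cell, 0 to the 8-cell, 4 to the 16-cell and 20 to the 32-cell stage. Without the low-sum libraries, 6 members fell at the 4-cell stage and 17 at the 32-cell stage, although neither step holds such a library. They enter there through the shared estimate of the spread and through the filter, which 17946 instead of 18704 unigenes then passed. The share of all unigenes called in the steps of that fit was not computed, so its step counts, here and below, have no background. In all, 32 members were called in at least 1 later step.

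At 1.5 hpf, against the 32-cell stage, 6 members rose and 2 fell, with a background of 14.5% of all unigenes, 11.5% higher and 3.01% lower. The risers were ZFP36L1 a, ZFP36L1 b, the deadenylase PARN with a log2 difference of 1.92, Pum3 with 1.89, the exosome subunit EXOSC1 with 1.34 and Smg8 with 1.28. Cnot9, a CCR4-NOT subunit that contacts several adaptors, fell with a log2 difference of -2.74, and the catalytic subunit Cnot7 with -1.45. Cnot9 held between 127 and 261 RPKM in every library from egg to 32-cell embryo, and then measured 25.7, 28.5 and 19.1 RPKM at 1.5 hpf. Its libraries of the 2 periods did not overlap. Without the low-sum libraries, 24 members rose and 3 fell in this step, a count to which the 14.5% does not apply. In the next step sequencing run and stage cannot be told apart, as all 1.5 hpf libraries were of run 1 and all 2.5 hpf libraries of run 2. At 2.5 hpf only ZFP36L1 a rose further, with a log2 difference of 1.39, and Lsm2 fell with -1.25, against a background of 3.17%, with 1.95% higher and 1.22% lower. That count was 2 and 5 without the low-sum libraries.

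At 3 hpf, the stage of hatching, 8 members rose and 5 fell against 2.5 hpf, with a background of 27.6%, 23.1% higher and 4.48% lower. PAN3 b, which carries the symbol of the regulatory partner of the PAN2 deadenylase, rose with a log2 difference of 4.01. The nonsense-mediated decay helicase UPF1 rose with a difference of 1.33, and XRN1 with 1.47. The 5 that fell were all LSM genes: LSM7 with -1.95, Lsm3 with -1.67, LSM1 with -1.63, Lsm2 with -1.30 and Lsm12 a with -1.14. Fewer members were called at 3 hpf without the low-sum libraries. As 3 hpf is then 1 library, the loss of those libraries and the loss of replication cannot be told apart. The low-sum libraries of 3 hpf did differ in level from library 5. UPF1, for example, measured 4.95 RPKM in 3 hpf library 5 but 15.7 and 16.6 in libraries 33 and 34, and 2.44 to 5.91 RPKM at 2.5 hpf.

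After hatching, several exosome members fell. At 5 hpf, 1 member rose and 9 fell against 3 hpf, with a background of 35.7% (28.8% higher and 6.97% lower), and 5 of the 9 belonged to the exosome group: SKIV2L2 with -2.19, the nuclease Dis3 with -1.82, EXOSC10 with -1.74, Exosc9 with -1.38 and Exosc2 with -1.30. Fewer were called in that step without the low-sum libraries, where it sets 1 library against 1. At 8 hpf, 2 rose and 10 fell against 5 hpf, with a background of 29.7% (19% higher and 10.8% lower), and 7 of the 10 were exosome subunits, with differences of -0.92 to -1.66. The number called at 8 hpf was similar without the low-sum libraries, where 5 hpf is 1 library. Exosc2, which encodes a cap protein of the exosome, shows the course: 52.2, 49.4 and 37.002 RPKM at 3 hpf, 16.0, 15.7 and 23.1 at 5 hpf, 9.48, 6.37 and 6.18 at 8 hpf, and 8.96, 10.3 and 9.43 at 10 hpf. Neither 5 hpf and 3 hpf nor 8 hpf and 5 hpf overlapped. EXOSC8, a subunit of the exosome ring, held 219, 304 and 122 RPKM at the 4-cell stage and 5.97, 7.24 and 10.0 RPKM at 8 hpf. No member was called between 8 and 10 hpf, against a background of 4.29%, with 2 at an unadjusted p under 0.05.

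**Figure D2:**
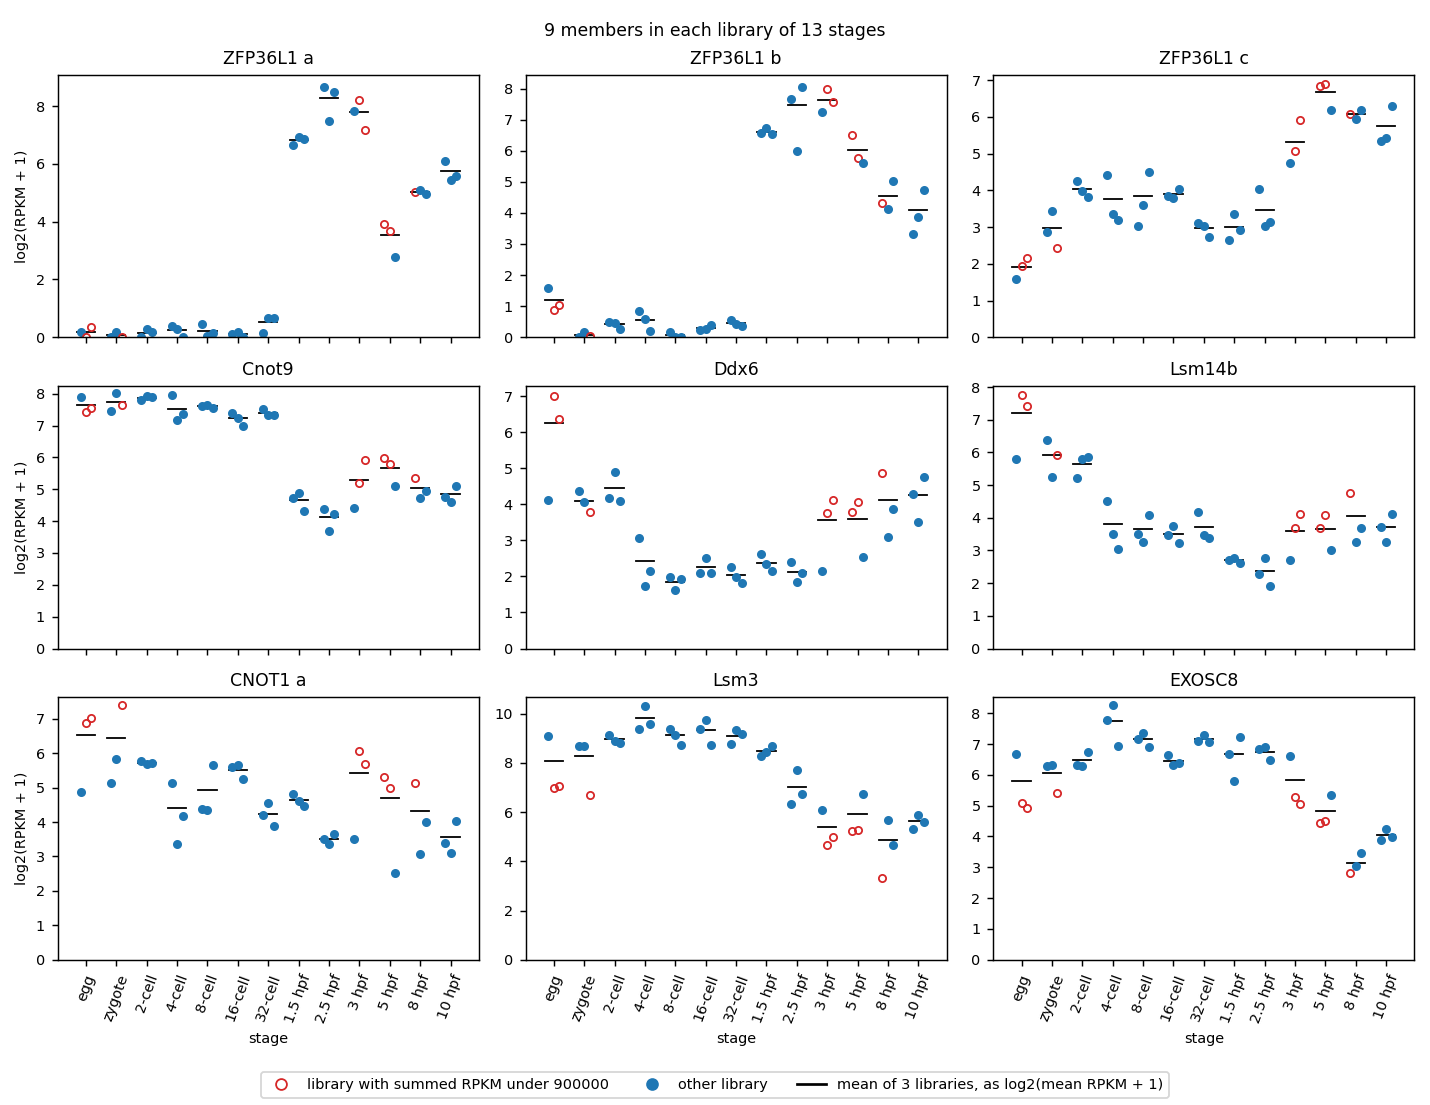
log2(RPKM + 1) of 9 members in each library of the 13 stages, with bars at the stage means and open circles for the 8 libraries whose RPKM values sum to under 900000. ZFP36L1 a and b are near 0 until the 32-cell stage and high from 1.5 to 3 hpf, Cnot9 steps down at 1.5 hpf, EXOSC8 is lowest at 8 hpf, and the open circles of CNOT1 a lie above and those of Lsm3 mostly below the other libraries of their stage.

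At 2.5 hpf, in the tadpole before hatching, 3 members were higher and 18 lower than in the egg, that is 21 of 68 members against a background of 24.4%. By direction, 4.41% of the members were higher and 26.5% lower, and of all unigenes 13.6% were higher and 10.8% lower. The median log2 difference was -0.49 over the members and 0.06 over all unigenes tested. The 3 higher members were all ZFP36L1, which encodes a zinc-finger protein that binds AU-rich elements in mRNAs. The 18 lower members comprised 7 of 11 CCR4-NOT, 1 of 4 other deadenylases, 5 of 16 decapping, 3 of 15 exosome and helicase and 2 of 9 nonsense-mediated decay unigenes.

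ZFP36L1 a measured 403, 176 and 360 RPKM at 2.5 hpf, against 0.122, 0 and 0.276 RPKM in the egg. In every library from egg to 32-cell embryo it lay between 0 and 0.604 RPKM, and at 1.5 hpf it was at 100, 119 and 116 RPKM. Its log2 difference between 2.5 hpf and egg was 8.03 ± 0.31 (SE, limma adjusted p = 2.83e-20). Tadpole and egg libraries were far apart with no overlap.

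ZFP36L1 b took the same course, with 203, 62.6 and 264 RPKM at 2.5 hpf against 1.97, 0.845 and 1.05 RPKM in the egg. The difference was 6.07 ± 0.39 (limma adjusted p = 4.91e-15). ZFP36L1 c was already present during cleavage, at 2.03 to 21.6 RPKM. It measured 15.5, 7.16 and 7.76 RPKM at 2.5 hpf, against 2.03, 2.81 and 3.51 RPKM in the egg, a difference of 1.50 ± 0.38 (limma adjusted p = 0.00235). The 3 tadpole libraries lay above the 3 egg libraries, but with sequencing run or lane as a term in the fit the adjusted p was 0.104 or 0.174.

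Afterwards the 3 unigenes parted. ZFP36L1 a dropped by 4.28 on the log2 scale between 3 and 5 hpf, to 14.2, 11.8 and 5.90 RPKM, and then rose by 1.55 at 8 hpf. ZFP36L1 b declined in steps to 9.11, 13.7 and 25.6 RPKM at 10 hpf. ZFP36L1 c instead rose at 3 hpf and again at 5 hpf in the fit as designed, where it reached 114, 118 and 71.9 RPKM. On the RPKM scale, which is per length, ZFP36L1 c was above ZFP36L1 b in each 5 hpf library, where ZFP36L1 b had 89.2, 53.5 and 47.7 RPKM.

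The members with the largest drop at 2.5 hpf were Lsm14b and Ddx6, which encode RNA-binding proteins of repressed mRNPs. Lsm14b, whose vertebrate counterpart binds stored maternal mRNAs, measured 3.84, 5.78 and 2.76 RPKM at 2.5 hpf, against 54.1, 214 and 170 RPKM in the egg. The difference was -4.67 ± 0.48 (limma adjusted p = 6.75e-10), with no overlap. Ddx6, the helicase that couples deadenylation to decapping and repression, measured 4.26, 2.58 and 3.24 RPKM, against 16.3, 128 and 81.3 RPKM in the egg. Its difference was -3.73 ± 0.53 (limma adjusted p = 8.47e-07), again without overlap. Both levels were already low in late cleavage, with 2.52 to 3.82 RPKM of Ddx6 and 9.33 to 16.9 RPKM of Lsm14b at the 32-cell stage. Of the decapping group, Patl1 a and Patl1 b, scaffolds between the LSM ring and DCP2, fell with -2.67 and -3.04, and XRN1 with -2.18.

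Among the CCR4-NOT subunits, Cnot9 measured 19.7, 12.0 and 17.6 RPKM at 2.5 hpf, against 237, 171 and 185 RPKM in the egg, a difference of -3.53 ± 0.32 (limma adjusted p = 4.1e-11), with the groups far apart. Cnot1 b, a fragment or copy of the scaffold, had 0.990, 2.21 and 0.387 RPKM, against 2.56, 39.9 and 48.9 RPKM in the egg, a difference of -3.23 ± 0.84 (limma adjusted p = 0.00324). Its egg value rests on the low-sum libraries, and without them the difference was -0.78 with an adjusted p of 0.628. The remaining CCR4-NOT calls were CNOT1 a with -2.73, CNOT2 with -3.19, Cnot3 with -2.17, Cnot1 c with -2.94 and the nuclease Cnot7 with -1.52. CNOT2 measured 7.91, 13.7 and 6.66 RPKM at 2.5 hpf, against 42.3, 122 and 141 RPKM in the egg. Without the low-sum libraries 3 of the 11 CCR4-NOT members were called at 2.5 hpf, CNOT2, Cnot7 and Cnot9, all lower than in the egg.

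The exosome core was not called at this stage. None of the 9 EXOSC unigenes passed the limma test at 2.5 hpf against the egg, and 1 of them, EXOSC8, had an unadjusted p under 0.05, with a difference of 1.18. The 3 lower unigenes of the group were Dis3l2 a with -2.94, which acts outside the exosome, and SKIV2L and TTC37 with -1.65 and -1.78, both of the cytoplasmic SKI complex. Smg6, the endonuclease of nonsense-mediated decay, fell with -2.13. Without the low-sum libraries 4 members were higher and 7 lower, with Exosc9 as the added riser at 1.35 and Lsm3 and Lsm4 as added members that fell, at -2.18 and -1.85. With sequencing run as a term 7 were higher and 31 lower, against a background of 45.8% of all unigenes in that fit. The median log2 difference there was -1.245 over the members and -0.62 over all unigenes, so the whole transcriptome shifted down too. All egg libraries were of run 1 and all 2.5 hpf libraries of run 2, so run and stage cannot be told apart within this contrast, and the run term is estimated from 5 and 8 hpf, the stages with libraries of both runs, where the low-sum libraries are all of run 2. ZFP36L1 a and b higher, and CNOT2, Cnot7, Cnot9, Ddx6 and Lsm14b lower, were called the same way in the fit as designed, without the low-sum libraries, with summed RPKM as a term and with run as a term.

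By 10 hpf, in the juvenile, 6 members were higher and 47 lower than in the egg, that is 53 of 68 members against a background of 73.2%. By direction, 51.9% of all unigenes tested were higher and 21.3% lower, and the median log2 difference was -1.47 over the members and 0.91 over all unigenes tested. Under quantile normalization these medians were -2.22 over the members and -0.17 over all unigenes, so their opposite signs depend on the scaling. The lower members included 9 of 11 CCR4-NOT, 15 of 16 decapping, 11 of 15 exosome and helicase, all 3 other LSM and 4 of 9 nonsense-mediated decay unigenes. Adaptors were mixed, with 4 higher and 3 lower, and neither rescue factor, Pelo nor HBS1L, passed the test. In the fit without the low-sum libraries the lower members were 5 CCR4-NOT, 8 decapping, 9 exosome and helicase, 1 other LSM and 0 nonsense-mediated decay unigenes, and 4 adaptors were higher and 0 lower.

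The higher members were chiefly adaptors. ZFP36L1 a measured 68.1, 42.6 and 46.97 RPKM at 10 hpf, against 0.122, 0 and 0.276 RPKM in the egg, a difference of 5.54 ± 0.31 (limma adjusted p = 3.56e-17). TOB2, an antiproliferative protein that recruits CCR4-NOT, measured 69.5, 52.2 and 102 RPKM, against 6.24, 3.27 and 5.32 RPKM in the egg, with 3.65 ± 0.56 (limma adjusted p = 5.85e-07). ZFP36L1 c measured 39.8, 42.2 and 77.1 RPKM, against 2.03, 2.81 and 3.51 RPKM in the egg, with 3.79 ± 0.38 (limma adjusted p = 5.93e-11). All juvenile libraries of these 3 adaptors lay above all egg libraries.

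PAN3 b measured 23.2, 18.4 and 26.8 RPKM at 10 hpf, against 0.0628, 0.0739 and 0.0993 RPKM in the egg. The difference was 4.45 ± 0.48 (limma adjusted p = 4.29e-10). PAN3 b did not exceed 1.85 RPKM in any library from egg to 32-cell embryo and reached 106, 111 and 21.6 RPKM at 5 hpf. PAN3 a, the other unigene of that symbol, was present in every stage library, with 6.496 RPKM as the lowest, 28.4 as the median and 91.6 as the highest. It was the 1 member that did not pass the F-test over the stages (limma adjusted p = 0.0606). At 2.5 hpf it was lower than in the egg with -2.39, and without the low-sum libraries the difference was -1.29 with an adjusted p of 0.0892.

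On the lower side, SKIV2L2, the helicase of the nuclear exosome, measured 3.13, 4.18 and 5.83 RPKM at 10 hpf, against 55.9, 50.4 and 55.4 RPKM in the egg, a difference of -3.38 ± 0.39 (limma adjusted p = 2.01e-09). SKIV2L, the helicase of the cytoplasmic exosome, measured 2.80, 1.74 and 1.94 RPKM, against 8.51, 32.1 and 36.2 RPKM in the egg, with -2.86 ± 0.47 (limma adjusted p = 1.58e-06). Both helicases were lower in every juvenile library than in any egg library.

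Lsm14b measured 12.1, 8.55 and 16.2 RPKM at 10 hpf, against 54.1, 214 and 170 RPKM in the egg, with -3.29 ± 0.48 (limma adjusted p = 1.86e-07). Patl1 b measured 1.52, 3.45 and 8.81 RPKM, against 13.7, 67.7 and 61.4 RPKM in the egg, with -3.05 ± 0.72 (limma adjusted p = 0.000344). All juvenile libraries lay below all egg libraries for both genes, although without the low-sum libraries the adjusted p of Patl1 b was 0.0628. In that fit 9 members were higher and 23 lower. PAN3 b, TOB2 and the 3 ZFP36L1 unigenes were called higher, and 22 members lower, in the fit as designed, without the low-sum libraries and with summed RPKM as a term.

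LSM1 to LSM7 form the ring that binds the shortened tail together with Patl1 proteins, and Lsm8 is followed here beside them. All 7 members among LSM1 to LSM8 had their highest mean at the 4-cell stage, between 191 RPKM for LSM1 and 983 RPKM for Lsm4. Lsm12 a, Exosc4 and EXOSC8 also peaked there. The 4-cell libraries summed to 1063849 to 1234504 RPKM, up to the highest sum of the staged set. These 7 members were lower in the low-sum libraries of the egg, 3, 5 and 8 hpf, and the part of the library sum in the peak was not tested. Lsm5 measured 441, 728 and 499 RPKM at the 4-cell stage, 8.70, 39.3 and 21.3 RPKM at 8 hpf and 23.7, 27.6 and 29.3 RPKM at 10 hpf, so late and early libraries were well apart. At 10 hpf all 7 except Lsm4 were lower than in the egg, with log2 differences of -1.22 for LSM7 to -2.38 for Lsm5. At 2.5 hpf none of the 7 was called by limma in the fit as designed, and 0 had an unadjusted p under 0.05.

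Within CCR4-NOT the subunits that were lower at 10 hpf than in the egg spanned -1.20 for CNOT11 to -2.79 for Cnot9. CNOT6, a nuclease subunit, fell with -1.73, and CNOT4, a ubiquitin ligase that associates with the complex, with -1.45. Cnot7 and Cnot10 did not pass the test, with differences of 0.37 and -0.44. The difference between the nuclease subunits CNOT6 and Cnot7 was not tested. Without the low-sum libraries CNOT6 had a difference of -1.03 and CNOT4 of -0.28, and neither was called, whereas Cnot9, CNOT11, CNOT1 a, CNOT2 and Cnot3 were.

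In nonsense-mediated decay, which removes mRNAs with premature stop codons, 1 member was higher and 4 were lower at 10 hpf in the fit as designed. Smg8, a regulator of the SMG1 kinase, was higher than in the egg with 1.13, whereas SMG5 and Smg6, effectors that act on the marked mRNA, fell with -1.33 and -2.21, and UPF3A with -1.20. The core helicase UPF1 had a difference of 0.16 and was not called. Smg8 measured 12.3, 8.45 and 10.4 RPKM at 10 hpf, against 5.36, 3.56 and 3.69 RPKM in the egg, with no overlap. These calls rest on the low-sum egg libraries: without them Smg1, Smg9 and UPF1 were higher, with 1.35, 1.83 and 1.38, and 0 members were lower. No nonsense-mediated decay member was called the same way as designed, without these libraries and with summed RPKM as a term.

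**Figure D3:**
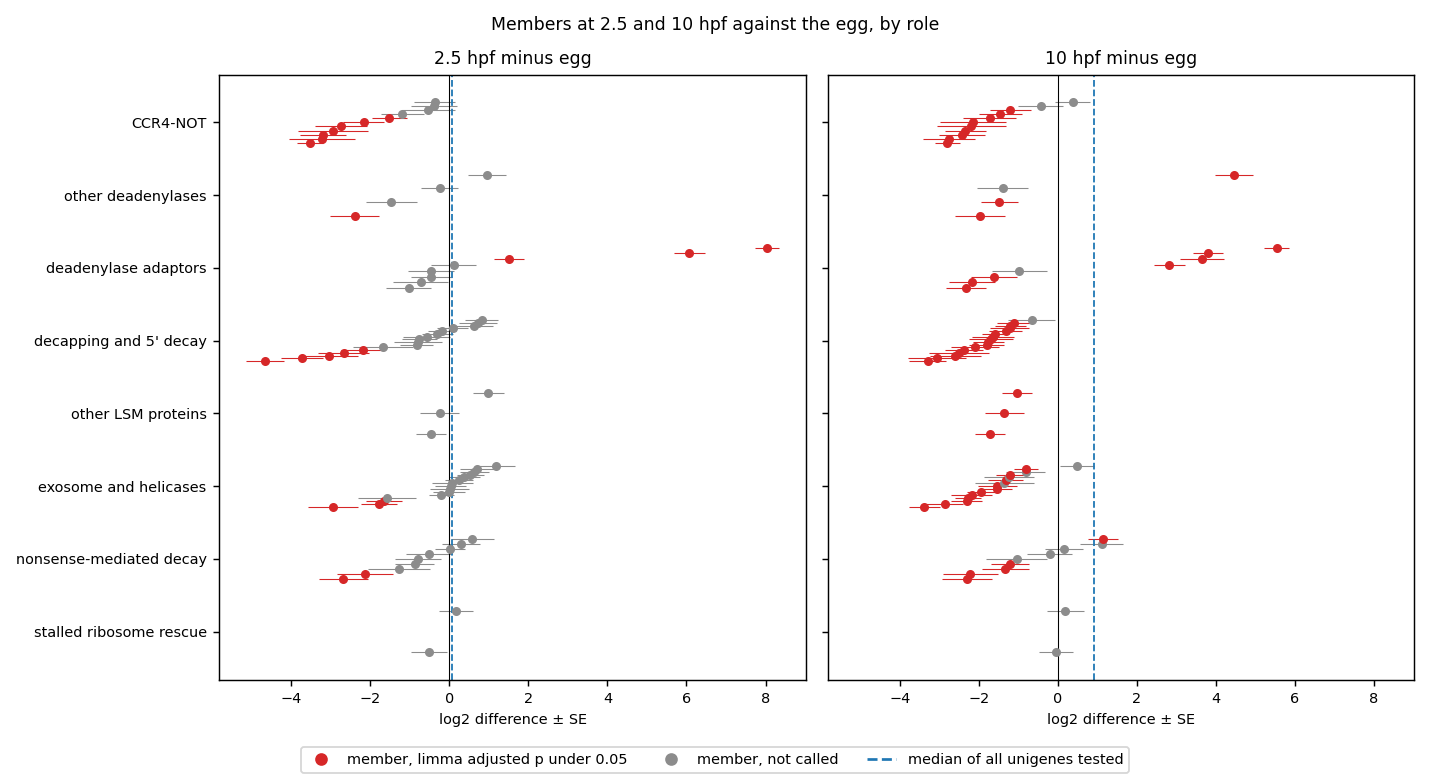
Log2 difference ± SE of each member from the egg at 2.5 hpf and at 10 hpf, by role, with red points for members called by limma, grey points for the others and a dashed line at the median of all unigenes tested. Of the CCR4-NOT members 7 of 11 are called below 0 at 2.5 hpf and 9 of 11 at 10 hpf, and ZFP36L1 a is the highest point of both panels at 8.03 and 5.54.

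Transcripts of most members were higher in females than in males. Of the 68 members 64 were higher and 1 was lower in adult females than in adult males, against a background of 46.8%, with 40.2% of all unigenes higher and 6.61% lower. The median log2 difference was 3.69 over the members and 0.73 over all unigenes tested. By role all 11 CCR4-NOT, all 4 other deadenylase, all 15 exosome and helicase and 15 of 16 decapping members were higher, with median differences of 3.85, 3.69, 3.44 and 4.34. The 8 adaptors were the least sex-biased role, with a median of 1.65 and 6 called. Those that did not pass included ZFP36L2 and ZFP36L1 a. All members reached 1 RPKM in both females, whereas 23 and 41 members were under 1 RPKM in the 2 males. Under quantile normalization 44 were higher and 3 lower, and with the summed RPKM as a term 57 were higher and 1 lower, with medians of 2.10 and 2.76 over the members. The RPKM values summed to 911253 and 795163 in females and to 1104085 and 1037214 in males, and the part of this in the differences was not tested.

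Ddx6 measured 333 and 300 RPKM in females, against 3.95 and 2.63 RPKM in males, a difference of 6.22 ± 0.65 (limma adjusted p = 6.58e-10). CNOT1 a, the CCR4-NOT scaffold, measured 58.0 and 105 RPKM in females, against 0.854 and 0.205 RPKM in males, with 5.73 ± 0.80 (limma adjusted p = 2.3e-07). The groups were separated widely for both genes.

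Lsm14b measured 394 and 511 RPKM in females, against 16.8 and 5.45 RPKM in males, with 5.39 ± 0.58 (limma adjusted p = 1.23e-09). EDC4, a scaffold of the decapping complex, measured 45.6 and 66.5 RPKM in females, against 0.451 and 0.313 RPKM in males, with 5.34 ± 0.93 (limma adjusted p = 9.42e-06). Neither gene overlapped between the sexes.

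XRN2, the nuclear exonuclease that also acts at transcription termination, went the other way. It measured 31.7 and 30.7 RPKM in females, against 404 and 345 RPKM in males, a difference of -3.54 ± 0.49 (limma adjusted p = 1.71e-07). The stage libraries held 6.44 to 68.9 RPKM of XRN2, so both males lay above all of them. ZFP36L2, which stood at 577 and 326 RPKM in females against 153 and 255 RPKM in males, was high in both sexes relative to the 0.194 to 40.6 RPKM of the stage libraries.

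Markers of gonad and body differed with sex as well. The 19 germ line and oocyte markers summed to 347 to 651 RPKM in females, with all 19 at 1 RPKM or more, against 9.68 to 75.6 RPKM in males, with 3 to 12 at that level. Of these 19, DDX4, the piRNA factors and BOLL are 10, and the other 9 (DDX41 to DDX49 and TDRD3) came in by the start of their symbol and act in RNA metabolism more widely. In a split made after seeing the data, the 10 alone summed to 171 to 339 RPKM in females, with all 10 present, against 3.71 to 55.6 RPKM in males, with 1 to 5 present. The 72 sperm and axoneme markers summed to 229 to 391 RPKM in females, with 46 to 48 present, against 15760 to 17518 RPKM in males, with 43 to 48 present. Of these 72 unigenes 37 were called lower and 19 higher in females, with a median log2 difference of -1.73. The 83 muscle markers summed to 2439 to 2480 RPKM in females, with 59 to 61 present, and 22068 to 35184 RPKM in males, with 29 to 33 present. By unigene the direction was the other: 34 of the 83 were called higher and 1 lower in females, with a median log2 difference of 0.97. The larger male sum thus rests on a part of the list. That list was also picked by the start of symbols and includes MYH9 and MYH10, which are not particular to muscle. The 104 gut markers summed to 1108 to 3227 RPKM in females, with 73 present, and 584 to 3501 RPKM in males, with 50 to 60 present. The part of cell make-up in the difference between the sexes was not tested.

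Against the egg, the female differed in few members: 8 were higher and 0 lower, against a background of 23.8%, with 23.7% of all unigenes higher and 0.112% lower. They were ZFP36L2 with 4.41, TOB2 with 2.62, Ddx6 with 2.48, PAN3 b with 2.43, ZFP36L1 c with 2.19, Lsm14b with 1.83, ZFP36L1 b with 1.63 and ZFP36L1 a with 1.41. No CCR4-NOT, exosome or nonsense-mediated decay member was called in the limma fit, and 10 members had an unadjusted p under 0.05. Under quantile normalization 4 were higher and 3 lower, and the median of all unigenes was -0.18 there, against 0.33 in the fit as designed. In the fit as designed Ddx6, Lsm14b and 5 adaptors were thus higher in the female than in the unfertilized egg. With summed RPKM as a term 8 were again higher and 0 lower. This contrast was not fitted without low-sum eggs 29 and 41, and female 28 also summed to under 900000. The median member lay at 26.2 and 40.1 RPKM in the females, against 15.7 in egg 9 and 40.4 and 42.8 in eggs 29 and 41. The part of the low-sum libraries in the small number of calls was not tested.

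**Figure D4:**
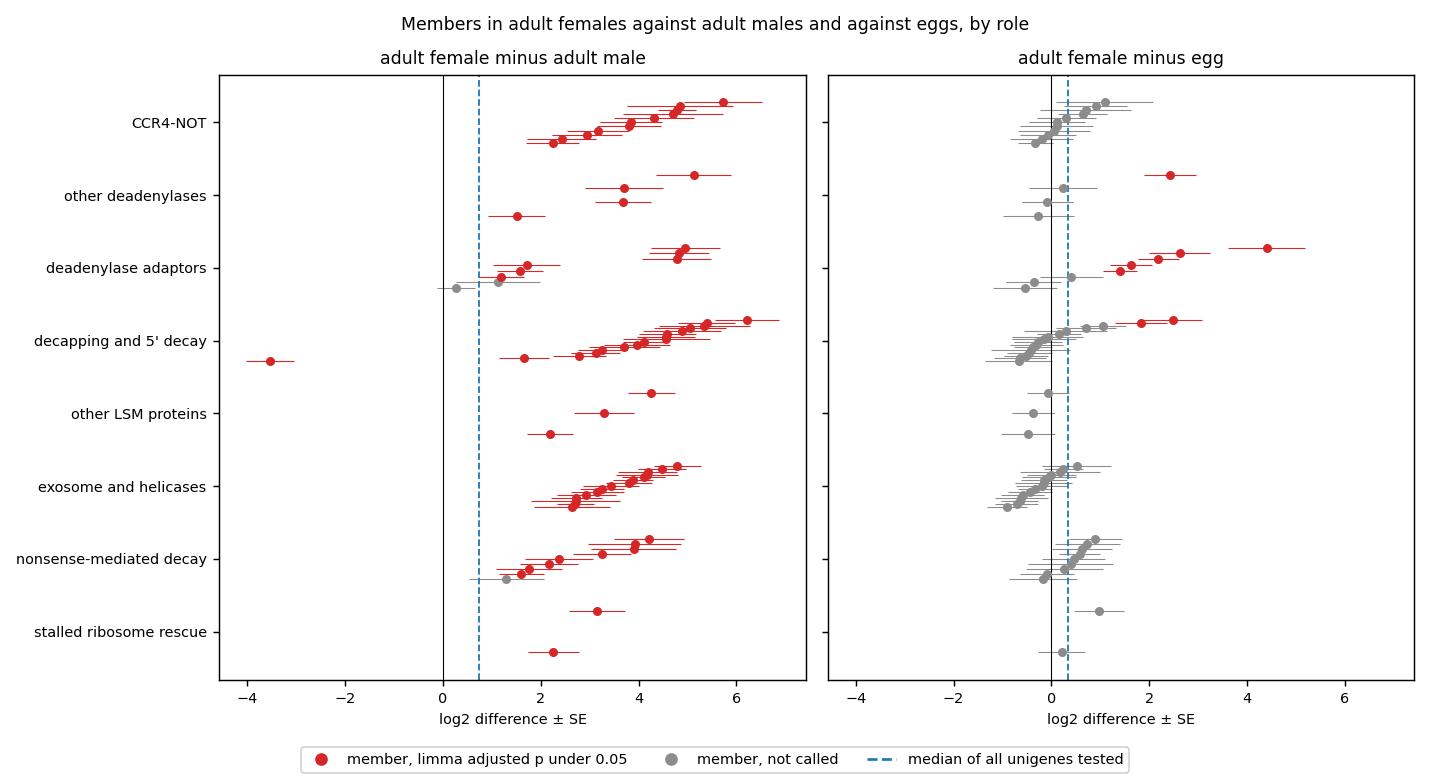
Log2 difference ± SE of each member in adult females against adult males and against eggs, by role, with red points for members called by limma, grey points for the others and a dashed line at the median of all unigenes tested. Against males only XRN2 is called below 0, at -3.54, and against eggs the 8 called members are all above 0.

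At the 8-cell stage the vegetal and animal hemispheres showed no called difference in this machinery. None of the 66 members tested in the hemisphere set was called, against a background of 0.401% (0.395% higher and 0.00637% lower), and none had an unadjusted p under 0.05. The log2 differences, vegetal minus animal, ran from -0.28 to 0.55. By role the median difference lay between -0.03 for the other LSM proteins and 0.41 for the rescue factors. Cnot1 b and Cnot1 c were below the filter of 1 RPKM in at least 4 libraries and were not tested in this set.

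At 12 hpf, 9 of 66 members were higher and 2 lower in the vegetal than in the animal derived samples, against a background of 48.2%, with 32.9% higher and 15.3% lower. The median difference was 0.20 over the members and 0.30 over all unigenes tested, so the members' share of calls was below that of the transcriptome. With the replicate number as a block, 15 were higher and 4 lower. Under quantile normalization, in which the median of all unigenes was -0.20, 4 were higher and 16 lower, so the balance of directions over the members depends on the scaling. Without vegetal library 3 of 12 hpf, 14 were higher and 3 lower.

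Pum3, a Pumilio-family protein known mainly from ribosome assembly, measured 46.4, 92.5, 71.1 and 77.4 RPKM in vegetal libraries 3 to 6 at 12 hpf, against 17.02, 18.1, 27.7 and 24.3 RPKM in animal libraries. The difference was 1.66 ± 0.22 (limma adjusted p = 8.17e-07). Exosc4, a subunit of the exosome ring, measured 28.1, 61.5, 50.2 and 28.3 RPKM in vegetal libraries, against 13.6, 20.6, 13.1 and 12.1 RPKM in animal libraries, with 1.39 ± 0.24 (limma adjusted p = 4.09e-05). Vegetal and animal libraries did not overlap for either gene.

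Exosc3, a cap subunit, measured 16.95, 23.1, 18.4 and 22.5 RPKM in vegetal libraries, against 4.99, 9.83, 9.11 and 7.71 RPKM in animal libraries, with 1.28 ± 0.28 (limma adjusted p = 0.000443). Exosc9, of the ring, measured 15.3, 24.98, 19.6 and 15.7 RPKM in vegetal libraries, against 6.499, 5.47, 13.4 and 9.16 RPKM in animal libraries, with 1.09 ± 0.29 (limma adjusted p = 0.00279). These groups were also separate, although under quantile normalization the adjusted p of Exosc9 was 0.0519. Smaller differences were called for PARN with 0.94, TTC37 with 0.92, SKIV2L2 with 0.85, PAN3 a with 0.73 and SKIV2L with 0.64. Of the 15 exosome and helicase members 6 were higher, or 40%, against 32.9% of all unigenes, and their median difference was 0.60. No CCR4-NOT, decapping or nonsense-mediated decay member was called by limma at 12 hpf, with median differences of -0.03, 0.03 and 0.25 and with 1, 0 and 1 members at an unadjusted p under 0.05.

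PAN3 b was lower in the vegetal derived samples, with 4.37, 0, 0.150 and 1.41 RPKM in vegetal libraries, against 7.22, 2.92, 37.3 and 7.86 RPKM in animal libraries. Its difference was -2.38 ± 0.51 (limma adjusted p = 0.000407), and vegetal library 3 overlapped the animal range. Pum2 a, of the Pumilio family that binds defined motifs in target mRNAs, measured 31.8, 46.7, 25.99 and 22.3 RPKM in vegetal libraries, against 44.998, 82.5, 77.3 and 31.5 RPKM in animal libraries, with -0.83 ± 0.33 (limma adjusted p = 0.0417). The groups overlapped, and Pum2 a was not called when animal library 4 or 5, or vegetal library 3, 5 or 6, was left out, with differences of -0.64 to -0.85.

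The change of the hemisphere difference between the 2 times was tested as an interaction, 12 hpf minus 8-cell. In it 4 members were higher and 1 was lower, against a background of 35.6%, with 24.6% higher and 11% lower. They were Exosc3 with 1.47 ± 0.39 (limma adjusted p = 0.00454), Pum3 with 1.44 ± 0.31 (adjusted p = 0.000707), Exosc4 with 1.35 ± 0.34 (adjusted p = 0.0031), Exosc9 with 1.09 ± 0.41 (adjusted p = 0.0395), and PAN3 b with -2.40 ± 0.72 (adjusted p = 0.0114). With the replicate block 6 were higher and 4 lower, and under quantile normalization 3 were higher and 8 lower. The vegetal bias of the 3 exosome subunits and Pum3 at 12 hpf was therefore larger than at the 8-cell stage in the fit as designed.

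Markers differed between the vegetal and animal derived samples at 12 hpf as well. The sperm and axoneme list summed to 1568 to 3041 RPKM in vegetal libraries, with 46 to 51 of 72 present, against 97.4 to 113 RPKM in animal libraries, with 11 to 14 present. The muscle list summed to 8232 to 16544 RPKM in vegetal libraries, with 56 to 67 of 83 present, against 3112 to 4883 RPKM in animal libraries, with 18 to 31 present. The gut list summed to 3549 to 10320 RPKM, with 50 to 61 of 104 present, against 868 to 1084 RPKM in animal libraries, with 33 to 47 present. The germ line list summed to 749 to 1323 RPKM, with 18 to 19 of 19 present, against 214 to 325 RPKM in animal libraries, with 17 to 18 present. Its 10 unigenes of DDX4, the piRNA factors and BOLL summed to 490 to 942 RPKM in vegetal libraries, with all 10 present, against 65.9 to 91.3 RPKM in animal libraries, with 8 to 9 present. By unigene, 39 of 43 sperm and axoneme, 50 of 66 muscle, 30 of 69 gut and 7 of 19 germ line markers tested were called higher. In the same order 1, 5, 15 and 0 were called lower. The median log2 difference of the gut list was 0.40, against 0.30 over all unigenes, so its larger vegetal sum rests on a part of the list. In whole embryos of 12 hpf the muscle list summed to 22889 to 29252 RPKM, above the vegetal and the animal libraries. The sperm and axoneme, gut and germ line lists summed there to 822 to 934, 2027 to 2641 and 649 to 758 RPKM. The part of these cell types, or of developing as a separate part, in the members' differences was not tested.

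**Figure D5:**
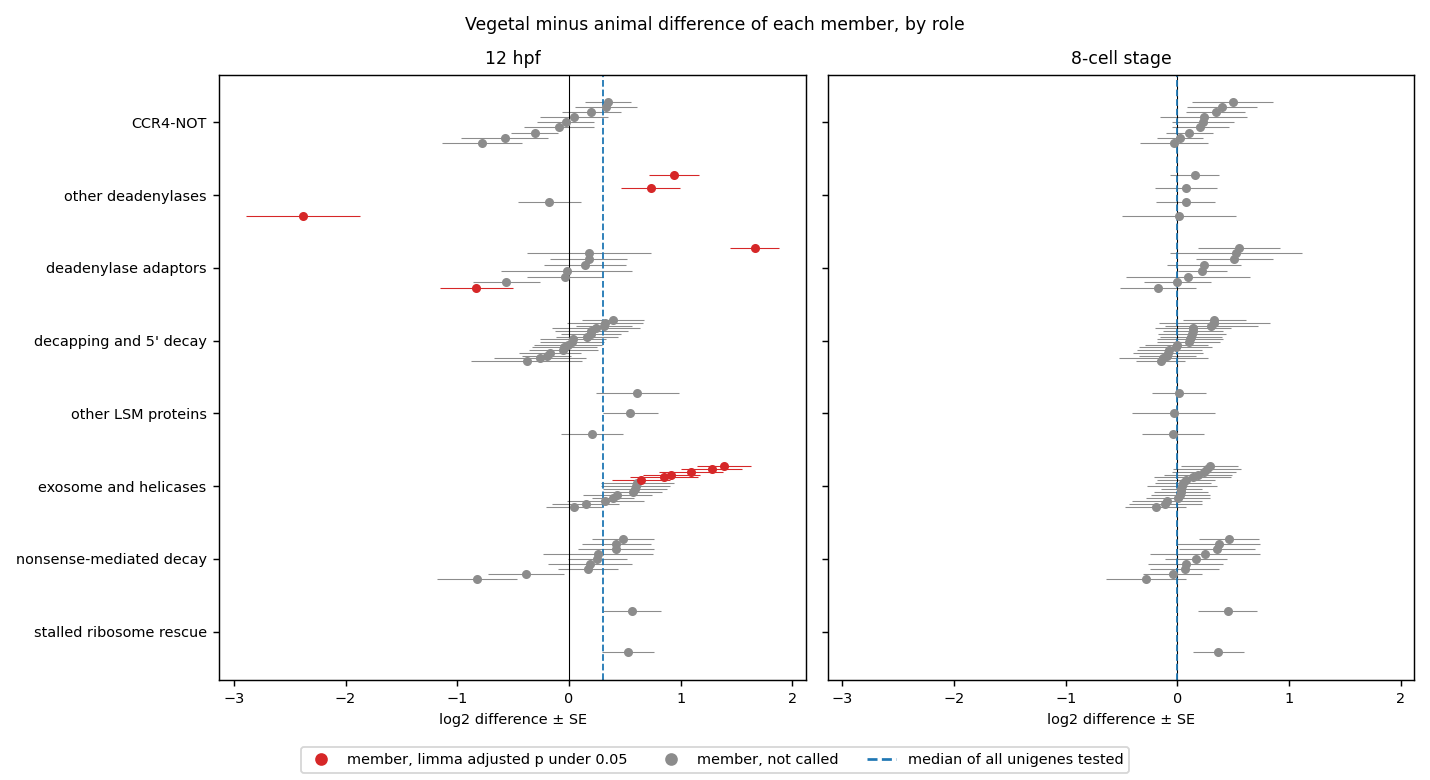
Log2 difference ± SE, vegetal minus animal, of each of 66 members at 12 hpf and at the 8-cell stage, by role, with red points for members called by limma, grey points for the others and a dashed line at the median of all unigenes tested. At 12 hpf 9 members are called above 0, 6 of them in the exosome row, and 2 below 0, while at the 8-cell stage all points are grey and lie between -0.28 and 0.55.

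Whole embryos of the hemisphere set gave the developmental contrast in other libraries, made with another kit. At 12 hpf, 14 of 66 members were higher and 34 lower than at the 8-cell stage, against a background of 79.1%, with 56.3% higher and 22.9% lower. The median difference was -0.79 over the members and 1.17 over all unigenes tested. Under quantile normalization 6 were higher and 50 lower, and the median of all unigenes was -0.18. The lower members included 13 of 16 decapping, 11 of 15 exosome and helicase and all 3 other LSM unigenes, while nonsense-mediated decay had 5 higher and 2 lower.

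Dcp1b, the activator of the decapping enzyme, measured 3.01, 1.86, 5.08 and 4.38 RPKM at 12 hpf, against 43.5, 72.8, 42.03 and 65.7 RPKM at the 8-cell stage, a difference of -3.65 ± 0.30. Cnot7 measured 125, 151, 116 and 126 RPKM at 12 hpf, against 29.4, 33.03, 32.9 and 56.5 RPKM at the 8-cell stage, with 1.78 ± 0.21. Neither gene overlapped between the times. The largest rise was that of ZFP36L1 b, with 5.11 ± 0.34, followed by ZFP36L1 a with 3.36, PAN3 b with 3.33 and TOB2 with 3.32.

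Of the 9 nonsense-mediated decay members 5 were higher at 12 hpf, or 55.6%, against 56.3% of all unigenes, with a median difference of 0.91 against 1.17. Smg9, which like Smg8 binds the SMG1 kinase, measured 21.5, 28.3, 15.3 and 29.2 RPKM at 12 hpf, against 3.99, 4.70, 2.84 and 8.89 RPKM at the 8-cell stage, with a difference of 2.06. Smg8 differed by 2.03, UPF1 by 1.47, Smg1 by 1.42 and UPF2 by 0.91, whereas UPF3A and Smg6 were lower with -1.42 and -1.07. Both ribosome rescue factors were higher, Pelo, which splits stalled ribosomes, with 1.38 and its partner HBS1L with 0.78. Exosc5, of the exosome ring, measured 14.7, 17.7, 24.7 and 29.4 RPKM at 12 hpf, against 129, 86.0, 142 and 151 RPKM at the 8-cell stage, with -2.51 and no overlap.

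Of the 66 members tested in both, 6 were higher both at 10 hpf than in the egg and at 12 hpf than at the 8-cell stage, which is all of the 6 and 42.9% of the 14. Lower in both were 31 members, which is 68.9% of the 45 and 91.2% of the 34, and 0 members were called in opposite directions. The same shares over the 15573 unigenes tested in both sets were 92.2% and 82.8% for higher and 74.5% and 81.3% for lower, and 34 and 92 unigenes were called in opposite directions. The contrasts use different libraries and different stages.

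Other genes of RNA turnover that the symbols did not select, such as poly(A)-binding, poly(A) polymerase, Argonaute and release factor genes, gave 55 unigenes for comparison. At 2.5 hpf 13 of them were higher and 7 lower than in the egg, against the background of 24.4%, with a median log2 difference of 0.09 over the list and 0.06 over all unigenes. At 10 hpf 12 were higher and 21 lower than in the egg, against 73.2%, with medians of -0.31 and 0.91. In females 39 were higher and 3 lower than in males, against 46.8%, with medians of 2.35 and 0.73, and against the egg 10 were higher and 0 lower, beside 23.8%, with medians of 0.52 and 0.33. In vegetal against animal samples 0 were called at the 8-cell stage, against 0.401%, and 15 were higher and 2 lower at 12 hpf, against 48.2%, with medians of 0.44 and 0.30. Celf6, of a family that binds GU-rich mRNA elements, rose with 5.28 at 2.5 hpf and 5.01 at 10 hpf, and ANGEL2, of the deadenylase-like family, fell with -2.004 and -2.30. GSPT2, a release factor linked to poly(A)-binding protein, fell with -2.85 and -3.34. Nudt16, which encodes a decapping enzyme outside the member set, was lower in females than in males with -6.69, as was an Eif4e unigene with -6.62.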

How the data were processed

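RNA was extracted with TRIzol and sequenced, per the labels' protocols. HISAT2 is named in the submitters' processing notes; its version is not given in the sources used here. The authors deposited expression as RPKM per unigene, read numbers, and alignment rates as a percent. A fraction of unstated meaning in the deposited read table and 138 further per-library columns were not used.

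Values were taken as log2(RPKM + 1) and fitted with limma 3.58.1 (lmFit, eBayes with trend) in R 4.3.3, with figures in Python 3.11.15. Unigenes needed 1 RPKM in at least 2 libraries (staged, 18704 unigenes) or 4 (hemisphere, 15697). Each set was 1 fit with a mean per group, which left 28 (staged) and 18 (hemisphere) degrees of freedom for the spread. Adjustment was by Benjamini-Hochberg over all unigenes tested in the set. Tests were checked on simulated data.

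The members and gene lists were chosen with earlier results of these data known. Values in every library were given for the 4 members with the largest called change in each direction of a main contrast; other genes were named after their values were seen. Markers were counted as present at 1 RPKM. Vegetal and animal libraries of 1 number deviated together (r of 0.550 to 0.701 at the 8-cell stage and 0.144 to 0.246 at 12 hpf), so the numbers pair them. Of the members 1 is counted in the totals but not reported here by name.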

Additional observations from a re-analysis of the deposited data

Results flagged for a closer look

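In all, 24 combinations of a member and a group of 4 libraries were examined for a library far from the rest. Of these 2 stood out, both for PAN3 b at the 8-cell stage: vegetal library 5 with 0.088 RPKM and animal library 3 with 0.045 RPKM. Chance gives about 5% of such combinations, and both values are close to 0. The hemisphere difference, vegetal minus animal, differed between 12 hpf and the 8-cell stage by the limma interaction for Exosc3 (1.47), Pum3 (1.44), Exosc4 (1.35), Exosc9 (1.09) and PAN3 b (-2.40).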

How the results depend on the processing

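Counts of called members that moved by more than 1.5 times were as follows. The share of all unigenes called often moved as well. At 2.5 hpf against the egg it was 24.4% as designed, 53.7% with array weights, 45.8% with run and 46.9% with lane as a term. At 2.5 hpf against the egg, 21 were called as designed, 47 with array weights, 38 with sequencing run as a term, 44 with lane as a term and 11 without the low-sum libraries. At 10 hpf against the egg, 53 were called as designed and 32 without the low-sum libraries. The number of members called in at least 1 stage step was 32 as designed, 68 with array weights, 49 with run, 61 with lane and 53 with summed RPKM as a term. Female against egg gave 5 calls with 1 unigene per symbol. At 12 hpf, vegetal against animal gave 11 calls, 20 under quantile normalization, 19 with the replicate block and 17 without vegetal library 3 of 12 hpf and whole 8-cell library 6 together. The shares of all unigenes were 48.2%, 48%, 56.3% and 51.4% in that order. The interaction gave 5 calls, 11 under quantile normalization and 10 with the replicate block, beside 35.6%, 33.8% and 43.7% of all unigenes.

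Leaving out 1 library at a time gave 18 to 29 calls at 2.5 hpf, 41 to 55 at 10 hpf, 25 to 57 over the steps (57 without 3 hpf library 5), 55 to 62 between the sexes, 6 to 8 for female against egg, 8 to 17 for the hemispheres at 12 hpf (17 without vegetal library 3) and 4 to 7 for the interaction. None of the named changes reversed. Of 249 combinations of a named change with another setting, 240 kept the call and 9 did not. Of 158 combinations of a named change with 1 library left out, 153 kept it. The named changes were picked as the largest called in these same data. The replicate block changed the call of none of the 6 genes named between hemispheres at 12 hpf, and gave 0 calls at the 8-cell stage and 51 for whole embryos, whose numbers do not pair across times (r of -0.05 to 0.11). Lane, summed RPKM and leaving out the low-sum libraries were chosen after seeing the data. The causes were not tested. Depth per library in counts is unknown for the RPKM values, so no counting error can be given.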
